A study of Mus musculus with 12 samples.

Results

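The Fc gamma receptor family was followed in whole liver of untreated mice and of mice injured with paracetamol (APAP) that then received vehicle or human alternatively activated macrophages (hAAMs). The family was a fixed list of 6 genes, found by symbol among the 24187 genes of the count table. Fcgr1, Fcgr3 and Fcgr4 encode activating receptors for immunoglobulin G (IgG), Fcgr2b the inhibitory receptor, Fcer1g the signalling chain that the activating receptors share, and Fcgrt the heavy chain of the neonatal Fc receptor. All 6 passed the filter on low counts, which left 22581 genes for testing.

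Fc gamma receptors on macrophages, monocytes and neutrophils bind IgG on the surface of particles and immune complexes. The activating receptors signal through the tyrosine motif (ITAM) of the Fcer1g chain and the kinase Syk, which leads to phagocytosis and cytokine release, whereas Fcgr2b carries an inhibitory motif and recruits the phosphatase Inpp5d (SHIP1). In liver, Fcgr2b is also a receptor of sinusoidal endothelial cells, which clear small immune complexes from blood, and the neonatal Fc receptor binds IgG and albumin inside cells and spares them from degradation.

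The mice are given as C57BL/6J in the series' design text, whereas the methods also name C57BL6/JOlaHsd for the APAP experiments. They were 10 to 12 weeks old by the methods, and the sex of the sequenced mice was not given in the sources used here. Control mice (n = 3) were untreated. The injured mice received 350 mg/kg APAP according to the sample labels, followed by PBS vehicle (n = 5) or hAAMs (n = 4). These livers are presented together with a more severe injury model that used 500 mg/kg, so the dose is in doubt. Vehicle or cells were given 16 h after APAP. The methods name 36 h after APAP as the time at which mice were culled, and 32 h is named for serum and survival in that model. Neither time is tied to the sequenced livers. Each library came from a piece of whole frozen liver, so fewer cells of a type and less RNA per cell cannot be told apart. Reads were aligned to the mouse genome alone, and RNA of the injected human cells was not counted separately. The labels give each liver a replicate number. A p-value weighs a difference between groups against the spread between livers of a group, estimated from all 12 livers.

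Total counts ranged from 47391650 to 74056505 per liver. The hAAM-treated liver of replicate 4 and the vehicle-treated liver of replicate 3 differed by a median of 1.42 times counting noise over genes, whereas the other 35 pairs of injured livers differed by 5.63 to 24.3 times. Their group labels differ and were kept as given. Whether both were made from 1 liver was not tested and cannot be told from the counts, and it bears on n = 5, n = 4 and the comparison of the treatments. The extraction protocol speaks of 14 libraries, of which 12 are analysed here. Values without both are given beside the calls that change without them. A log2 fold change below is from edgeR's quasi-likelihood test with its standard error (SE) and its Benjamini-Hochberg false discovery rate (FDR) over all genes tested, called below 0.05. Levels are CPM, counts scaled to 1000000 per library on library sizes adjusted by TMM.

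In the GRCm38 genome, 4 of the 6 genes lie close together on chromosome 1. Fcgr2b (ENSMUSG00000026656) lies at chr1:170958617-170976547, Fcgr4 at chr1:171018920-171029761, Fcgr3 at chr1:171051174-171064935 and Fcer1g at chr1:171229572-171234365. Fcgr1 lies at chr3:96282909-96293969 and Fcgrt at chr7:45092990-45103851. Fcgr4 is on the plus strand and the other 5 are on the minus strand.

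Fcgr3 and Fcgr2b, whose products deliver opposite signals, share a coding stretch of 129 identical bases, shown here because reads that lie inside it cannot be assigned to either gene. It spans exons 3 and 4 of both transcripts, at chr1:171057691-171057792 and chr1:171054167-171054193 in Fcgr3 and at chr1:170967980-170968081 and chr1:170966674-170966700 in Fcgr2b. The stretch is printed 5′ to 3′ in coding direction, without capitals because the genes do not differ in it.
Fcgr3 and Fcgr2b: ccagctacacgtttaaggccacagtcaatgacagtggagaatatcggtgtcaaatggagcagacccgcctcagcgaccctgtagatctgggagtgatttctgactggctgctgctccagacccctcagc
Of all words of 50 bases in the transcripts of Fcgr3, 9.58% also occur in another gene, and that gene is Fcgr2b. For words of 100 bases the share is 2.54%. Of the Fcgr2b words, 6.95% of those of 50 bases and 4.3% of those of 100 bases also occur in other genes, and these include Fcgr3 and many genes outside the family. Fcgr1, Fcgr4, Fcer1g and Fcgrt share no word of either length with another gene. Fcgr3 held 342 to 1123 counts per liver and Fcgr2b 1875 to 3569, and how reads that fit both were counted was not given in the sources used here.

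The 250 bases before the RefSeq start of the members (assembly GRCm38.p6) were searched for GAGGAA, the core of the box bound by the myeloid factor PU.1, and for TTCNNNGAA, the core of STAT sites, on both strands. Both motifs were chosen after the members' values were seen. GAGGAA was found in the windows of Fcgr1, Fcgr3 and Fcgr4, and not in those of Fcgr2b, Fcer1g and Fcgrt, while 23.3% of all 32851 promoter windows hold it. It lies on the minus strand of each window, and therefore reads TTCCTC in the printed strand, at 55 to 50 bases before the start in Fcgr1, 6 to 1 in Fcgr3 and 22 to 17 in Fcgr4. TTCNNNGAA, which reads as a match on either strand, was found only in Fcgr1 among the 6, at 109 to 101 bases before the start, and in 7.02% of all windows. The windows of the activating receptors are printed because all 3 hold the first motif close to the start, and that of Fcer1g because it encodes their signalling chain and holds neither. Capitals mark the motifs.
Fcgr1 (chr3:96293970-96294219, minus strand): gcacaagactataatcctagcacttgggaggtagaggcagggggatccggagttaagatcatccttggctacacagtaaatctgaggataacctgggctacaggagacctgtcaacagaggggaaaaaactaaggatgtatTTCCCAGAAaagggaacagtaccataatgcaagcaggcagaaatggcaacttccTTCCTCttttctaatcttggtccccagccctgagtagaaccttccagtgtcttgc
Fcgr3 (chr1:171059404-171059653, minus strand): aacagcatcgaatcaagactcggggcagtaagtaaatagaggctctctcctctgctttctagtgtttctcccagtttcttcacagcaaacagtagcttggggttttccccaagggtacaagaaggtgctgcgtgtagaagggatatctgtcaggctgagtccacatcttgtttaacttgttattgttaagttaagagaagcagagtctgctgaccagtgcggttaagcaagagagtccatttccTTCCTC
Fcgr4 (chr1:171018676-171018925, plus strand): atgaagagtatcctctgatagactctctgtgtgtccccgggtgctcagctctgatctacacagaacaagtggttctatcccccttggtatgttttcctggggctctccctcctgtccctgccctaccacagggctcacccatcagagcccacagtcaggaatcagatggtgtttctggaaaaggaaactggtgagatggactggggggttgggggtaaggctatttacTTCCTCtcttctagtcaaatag
Fcer1g (chr1:171234350-171234599, minus strand): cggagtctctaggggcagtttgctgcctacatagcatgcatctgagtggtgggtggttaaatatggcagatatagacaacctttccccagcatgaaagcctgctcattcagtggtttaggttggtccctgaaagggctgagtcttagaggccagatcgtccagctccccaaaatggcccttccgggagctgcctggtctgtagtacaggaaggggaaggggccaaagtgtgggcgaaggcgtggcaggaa
A match describes the letters only, and occupancy was not measured. RefSeq lists a second start for Fcgr3, 9 bases further in, and the Fcgr3 windows lie within the longer gene span given above.

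After APAP, 3 of the 6 members were higher in vehicle-treated mice than in control mice, namely Fcgr1, Fcgr4 and Fcer1g, and 0 were lower. Over all genes tested, 15.0% were called higher and 14.8% lower in this comparison. In hAAM-treated mice 2 of the 6 were higher than in control mice, Fcgr1 and Fcer1g, and 0 were lower, against 10.7% higher and 9.96% lower over all genes. The median log2 fold change of the 6 was 0.64 after vehicle and 0.60 after hAAMs, with medians of 0.01 and 0.02 over all genes. Leaving out 1 liver at a time moved these counts to between 1 and 4 after vehicle and between 0 (without control replicate 3) and 4 (without hAAM replicate 4) after hAAMs, and without both near-identical livers 4 members were called higher in each, where 3600 of 22477 genes were called higher after vehicle and 2504 (11.1%) after hAAMs. Both comparisons use the same control livers. The plot of members by liver shows the values behind these calls.

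**Figure D1:**
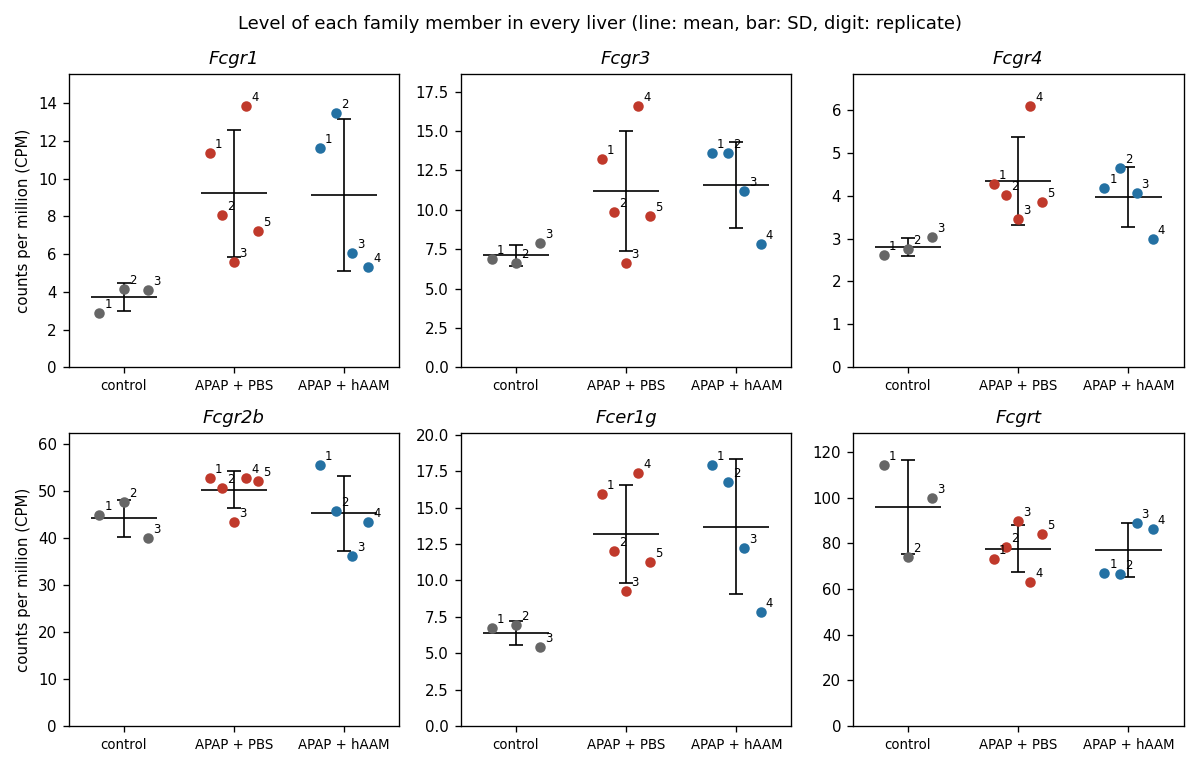
Level of each Fc gamma receptor family member (y axis, CPM) in each liver, by group on the x axis, with 1 point per liver and its replicate number, a line at the mean and a bar of 1 SD. The Fcgr1 and Fcer1g points of every injured liver lie above all 3 control points, whereas the Fcgr2b and Fcgrt points of the groups overlap.

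Fcgr1 (ENSMUSG00000015947) encodes the high-affinity activating receptor. Its levels were 2.90, 4.17 and 4.11 CPM in control replicates 1 to 3, on 152 to 265 counts. Vehicle-treated livers 1 to 5 held 11.4, 8.09, 5.56, 13.9 and 7.20 CPM, and hAAM-treated livers 1 to 4 held 11.6, 13.5, 6.06 and 5.34 CPM. Every injured liver exceeded every control liver, a separation seen for 17.5% of all genes in the vehicle comparison and 14.3% in the hAAM comparison. Fcgr1 rose by a log2 fold change of 1.31 in vehicle-treated mice (SE 0.36, FDR 0.018), which is 2.47-fold with a 95% interval of 1.43 to 4.27. After hAAMs it rose by 1.29 (SE 0.37, FDR 0.030). With the replicate number as a block neither was called (FDR 0.060 and 0.081). Leaving out control replicate 1, the lowest control liver, raised the FDR to 0.072 after vehicle and 0.101 after hAAMs. The hAAM call was also lost without control replicate 2 or 3 or hAAM replicate 1 or 2, at FDR values of 0.061 to 0.080.

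Fcgr4 (ENSMUSG00000059089) encodes an activating receptor that binds the IgG2 subclasses of the mouse. Control livers held 2.61, 2.75 and 3.04 CPM, on 137 to 175 counts. The vehicle-treated livers held 4.27, 4.02, 3.45, 6.09 and 3.86 CPM, all above the control livers. The hAAM-treated livers held 4.18, 4.65, 4.07 and 2.99 CPM, and the fourth lay among the control livers. Fcgr4 rose by a log2 fold change of 0.63 in vehicle-treated mice (SE 0.19, FDR 0.028), and this call was lost without any 1 of the 3 control livers, at FDR values of 0.055 to 0.089, and with the replicate block (FDR 0.110). The hAAM value of 0.50 (SE 0.20, FDR 0.095) was not called. It was called without both near-identical livers, at a log2 fold change of 0.62 and an FDR of 0.036, without hAAM replicate 4 alone (FDR 0.045) and without vehicle replicate 4 (FDR 0.042). A small nuclear RNA gene inside Fcgr4 on the same strand, Gm26110, held 25 to 42 counts in control, 5 to 76 in vehicle-treated and 35 to 47 in hAAM-treated livers, and its part in the Fcgr4 value was not tested.

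Fcgr3 (ENSMUSG00000059498) encodes the low-affinity activating receptor. Its levels were 6.86, 6.61 and 7.88 CPM in control livers. They were 13.2, 9.87, 6.62, 16.6 and 9.63 CPM in vehicle-treated livers and 13.6, 13.6, 11.2 and 7.82 CPM in hAAM-treated livers. The lowest injured liver of each group, vehicle replicate 3 and hAAM replicate 4, lay within the control range, and the other 7 lay above it. The log2 fold change was 0.66 in vehicle-treated mice (SE 0.26, FDR 0.080) and 0.70 in hAAM-treated mice (SE 0.27, FDR 0.090), and neither was called. These 2 livers are the near-identical pair, and without them the log2 fold changes were 0.80 (FDR 0.011) and 0.85 (FDR 0.017), both called. Both were also called without vehicle replicate 3 alone (FDR 0.021 and 0.049), and the hAAM value without hAAM replicate 4 alone (FDR 0.045).

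Fcer1g (ENSMUSG00000058715) encodes the FcR gamma chain, without which the activating receptors neither reach the surface in normal amounts nor signal. Control livers held 6.75, 6.95 and 5.43 CPM. Vehicle-treated livers held 15.9, 12.03, 9.25, 17.4 and 11.3 CPM, and hAAM-treated livers held 18.0, 16.8, 12.2 and 7.86 CPM. As for Fcgr1, the injured and control livers did not overlap. Fcer1g rose by a log2 fold change of 1.05 in vehicle-treated mice (SE 0.27, FDR 0.013), or 2.07-fold with a 95% interval of 1.38 to 3.10. It rose by 1.10 in hAAM-treated mice (SE 0.28, FDR 0.018), or 2.15-fold with an interval of 1.41 to 3.27. Both calls were lost without control replicate 3, the lowest control liver, at FDR values of 0.057 and 0.071.

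Fcgr2b encodes the inhibitory receptor. Control livers held 45.0, 47.8 and 40.0 CPM, vehicle-treated livers 52.8, 50.6, 43.5, 52.8 and 52.2 CPM, and hAAM-treated livers 55.7, 45.8, 36.3 and 43.6 CPM. In vehicle-treated mice 4 of 5 livers exceeded every control liver, and hAAM-treated livers lay on both sides of the control livers. Log2 fold changes were 0.19 in vehicle-treated mice (SE 0.12, FDR 0.270) and 0.03 in hAAM-treated mice (SE 0.13, FDR 0.873), and neither was called. The 95% interval of the change was 0.95-fold to 1.37-fold in vehicle-treated mice and 0.85-fold to 1.24-fold in hAAM-treated mice. Sinusoidal endothelial cells, which carry much of the Fcgr2b of the liver, are described with the marker lists. An antisense gene that overlaps Fcgr2b, Gm38204, held 1 to 20 counts per liver against 1875 to 3569 for Fcgr2b.

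Fcgrt (ENSMUSG00000003420) encodes the heavy chain of the neonatal Fc receptor, a relative of MHC class I that is built differently from the other receptors. Control livers held 114, 73.9 and 99.8 CPM, vehicle-treated livers 73.2, 78.6, 89.8, 63.0 and 83.9 CPM, and hAAM-treated livers 67.2, 66.5, 88.8 and 86.2 CPM. The second control liver lay within the range of the injured livers, and the other 2 control livers lay above all 9. The log2 fold change was -0.31 in vehicle-treated mice (SE 0.16, FDR 0.158) and -0.32 in hAAM-treated mice (SE 0.16, FDR 0.190). Without control replicate 2 the vehicle value was -0.47 and was called (FDR 0.048). Scaling libraries by total counts alone brought the median of all genes to 0.36 after vehicle and 0.32 after hAAMs. The Fcgrt values became 0.04 and -0.02, and relative to those medians they were -0.32 and -0.34.

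**Figure D2:**
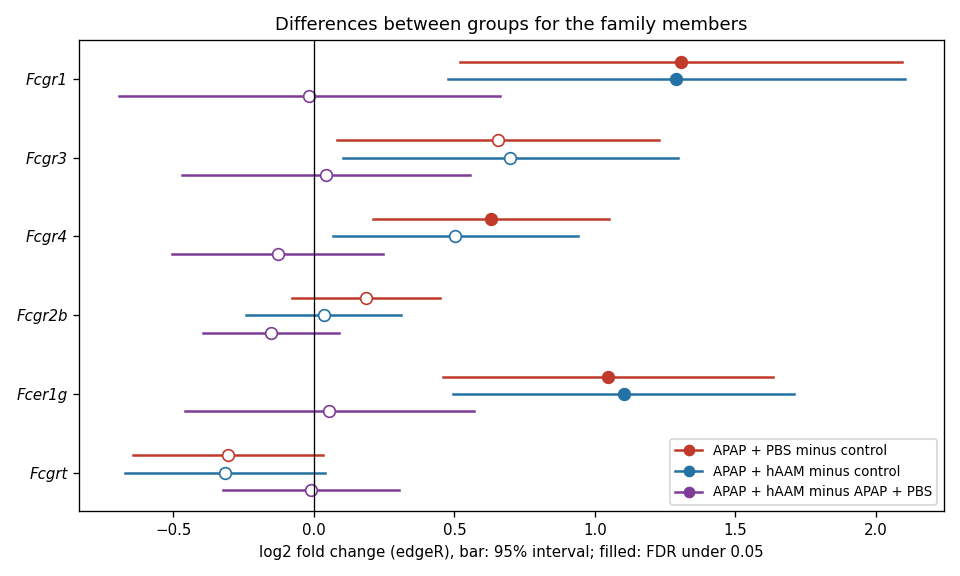
Log2 fold change of each member in the 3 comparisons (x axis, edgeR), with 95% intervals as bars and filled points for an FDR under 0.05. Filled points stand at Fcgr1 and Fcer1g in both comparisons with control and at Fcgr4 in the vehicle comparison, and the points of the hAAM and vehicle comparison lie between -0.15 and 0.06.

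When both treatments were compared directly, 0 of the 6 members were called, and 0 of all 22581 genes were called by edgeR (0% of the genes tested). At an unadjusted p under 0.05 there were 1133 genes (5.02%), none of them a member, and DESeq2 called 1 gene and 0 members. Without both near-identical livers edgeR called 0 genes and DESeq2 88, with 0 members by either. The log2 differences of hAAM-treated from vehicle-treated mice were -0.02 for Fcgr1, 0.04 for Fcgr3, -0.13 for Fcgr4, -0.15 for Fcgr2b, 0.06 for Fcer1g and -0.01 for Fcgrt, with FDR values of 0.973 or more. Their 95% intervals ran from 0.62-fold to 1.58-fold for Fcgr1, 0.72-fold to 1.47-fold for Fcgr3 and 0.73-fold to 1.48-fold for Fcer1g. They were narrower for Fcgr4 (0.71-fold to 1.19-fold), Fcgr2b (0.76-fold to 1.06-fold) and Fcgrt (0.80-fold to 1.24-fold). The livers of both treatments overlapped for each of the 6 members, and 1.40% of all genes did not overlap.

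The order of the members was read from reads per kilobase of merged exons and library size (RPKM), since CPM does not account for the length of a transcript. In control mice the level was 45.7 ± 9.78 RPKM for Fcgrt (SD, n = 3), followed by 7.65 ± 0.68 for Fcgr2b, 7.30 ± 0.94 for Fcer1g, 4.10 ± 0.39 for Fcgr3, 2.23 ± 0.18 for Fcgr4 and 1.44 ± 0.28 for Fcgr1. Control livers of Fcgr2b and Fcer1g overlapped in this scale, and the other neighbours in the order did not. In vehicle-treated mice the mean RPKM was 37.0 ± 4.90 for Fcgrt (SD, n = 5), 15.1 ± 3.87 for Fcer1g, 8.70 ± 0.68 for Fcgr2b, 6.45 ± 2.20 for Fcgr3, 3.56 ± 1.29 for Fcgr1 and 3.45 ± 0.82 for Fcgr4. Fcer1g stood above Fcgr2b in each vehicle-treated liver, while Fcgr2b and Fcgr3 overlapped, as did Fcgr3, Fcgr1 and Fcgr4. The order in hAAM-treated mice was the same by the mean RPKM, with 36.7 for Fcgrt, 15.7 for Fcer1g, 7.83 for Fcgr2b, 6.65 for Fcgr3, 3.52 for Fcgr1 and 3.16 for Fcgr4, and on merged exons Fcer1g again stood above Fcgr2b in each liver (20.5 against 9.62, 19.2 against 7.92, 14.0 against 6.27 and 8.99 against 7.52 RPKM), although the ranges over livers overlapped. Fcgr1 was the lowest of the 6 in control mice and overlapped with Fcgr4 in both injured groups. The merged exons of Fcgr2b (5790 bases) are longer than its transcript with the longest coding sequence (3544 bases), and on that length its mean was 12.5 RPKM in control, 14.2 after vehicle and 12.8 after hAAMs, where Fcer1g stood at 9.34, 19.3 and 20.1. On that length Fcer1g was above Fcgr2b in 0 of 3 control livers, 5 of 5 vehicle-treated and 3 of 4 hAAM-treated livers, the exception being hAAM replicate 4 (11.5 against 12.3 RPKM).

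The balance of activating and inhibitory receptors was described in each liver by the ratio of counts, which does not depend on the scaling of libraries. For Fcgr1 over Fcgr2b it was 0.0644, 0.0872 and 0.103 in control livers. In vehicle-treated livers it was 0.216, 0.160, 0.128, 0.263 and 0.138, and in hAAM-treated livers 0.208, 0.294, 0.167 and 0.123, so that each injured liver exceeded the control livers. On the log2 scale the ratio was higher by 1.06 in vehicle-treated mice and by 1.18 in hAAM-treated mice. For Fcgr3 over Fcgr2b the log2 differences from control were 0.40 and 0.65, and for Fcgr4 over Fcgr2b they were 0.42 and 0.47, and in these 4 cases injured and control livers overlapped. The vehicle-treated livers of Fcgr4 over Fcgr2b held 0.0740 to 0.115, and control livers 0.0576 to 0.0760. Leaving out 1 liver at a time, the log2 differences after vehicle were 0.88 to 1.22 for Fcgr1, 0.26 to 0.55 for Fcgr3 and 0.31 to 0.55 for Fcgr4, and after hAAMs 0.96 to 1.38, 0.54 to 0.81 and 0.35 to 0.60. No test was made of the ratios.

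**Figure D3:**
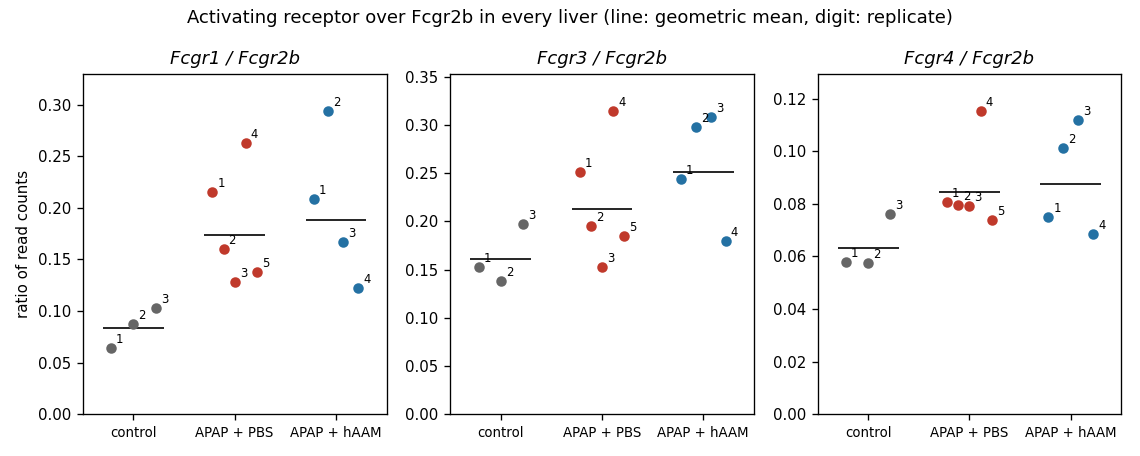
Ratio of read counts of Fcgr1, Fcgr3 and Fcgr4 to those of Fcgr2b (y axis, linear) in each liver by group, with the replicate number beside each point and a line at the geometric mean. For Fcgr1 the injured livers lie between 0.123 and 0.294 and the control livers between 0.0644 and 0.103.

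Levels spread widely within each treatment. Among the 9 injured livers, vehicle replicate 4 was the highest for Fcgr1, Fcgr3 and Fcgr4 and the lowest for Fcgrt. The near-identical pair, hAAM replicate 4 and vehicle replicate 3, took the 2 lowest ranks for Fcgr1, Fcgr3, Fcgr4 and Fcer1g. Within vehicle-treated mice Fcgr1 ranged from 5.56 to 13.9 CPM, and within hAAM-treated mice from 5.34 to 13.5 CPM. In the map of centred levels the activating receptors and Fcer1g shared high and low livers among the injured mice. Among control livers they did not, since replicate 3 was the lowest for Fcer1g and the highest for Fcgr3 and Fcgr4.

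**Figure D4:**
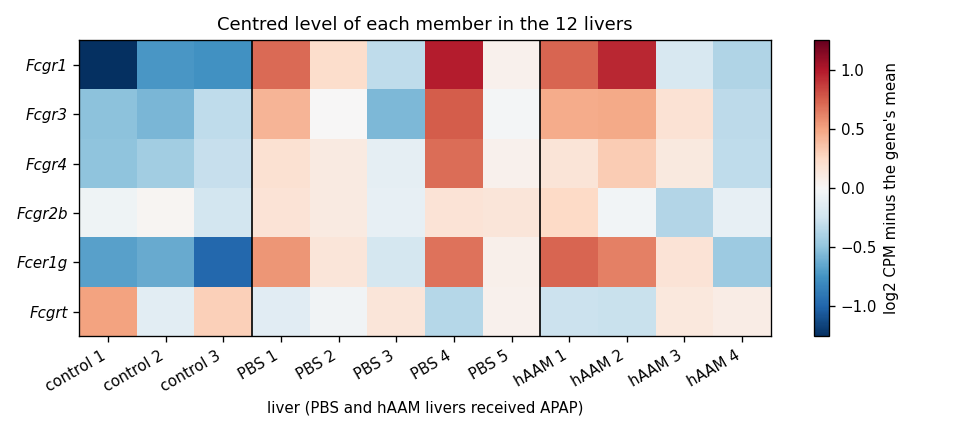
Log2 CPM of each member minus its mean over the 12 livers (colour scale), with livers in columns and groups parted by lines. Control livers are low for Fcgr1, Fcgr3, Fcgr4 and Fcer1g, vehicle replicate 4 and hAAM replicates 1 and 2 are high for them, and Fcgr2b shows the least colour.

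Likeness between profiles was measured as the mean absolute difference of centred log2 CPM over the 12 livers, which share these libraries and the contrast with control. Among the members, Fcgr3 was closest to Fcgr4 (0.14), Fcer1g to Fcgr3 (0.19) and Fcgr1 to Fcer1g (0.19). Fcgrt was farthest from Fcgr1 (0.78). Of 15278 candidates whose log2 CPM averaged 0 or more, those nearest to Fcgr1 were Ripk3 (0.10), P2ry6 (0.13) and Elf4 (0.13). Those nearest to Fcgr3 were Nfam1 (0.11), Laptm5 (0.11) and Slc11a1 (0.12), and to Fcgr4 they were Fes (0.080), Lpcat2 (0.10) and Fyb (0.11). Sirpa (0.066), Tlr6 (0.071) and Cd52 (0.082) were nearest to Fcer1g. For Fcgr2b, which varied little, they were Arf6 (0.046), Ncdn (0.055) and Tmem109 (0.058), and for Fcgrt they were Kif1b (0.060), Mettl26 (0.068) and Slc12a7 (0.070).

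Genes that act downstream of the activating receptors were taken from a list of signalling genes, of which 32 are reported here, all tested. Of these 32, 16 were higher after vehicle than in control mice, with a median log2 fold change of 0.47, and 13 were higher after hAAMs, with a median of 0.46. Over all genes tested, 15.0% were called higher after vehicle and 10.7% after hAAMs. Gab2, an adaptor that carries the signal to phosphatidylinositol 3-kinase, rose by 1.06 in vehicle-treated (FDR 0.0026) and by 0.98 in hAAM-treated mice (FDR 0.0074). Src, a kinase of the family that phosphorylates the ITAM, rose by 2.09 (FDR 0.0028) and 1.47 (FDR 0.023). The log2 fold changes of Syk, the kinase that docks on the ITAM, were 0.44 (FDR 0.143) and 0.58 (FDR 0.085), and neither was called. Without both near-identical livers the hAAM value of Syk was called (0.70, FDR 0.037), as it was without hAAM replicate 4 or control replicate 1 alone, and the vehicle value was called without control replicate 1. The hAAM call of Src was lost without any 1 control liver or hAAM replicate 1 or 2 (highest FDR 0.075). The list was shortened by 1 gene after its values were seen, so these counts do not cover the whole list. Without both near-identical livers 20 and 17 of the 32 were called, where 6743 and 4412 of 22477 genes tested were called in either direction.

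The inhibitory side was a list of 13 genes. Of these, edgeR called 7 higher after vehicle and 4 after hAAMs and 0 lower in either comparison, and the median log2 fold changes were 0.44 and 0.35. The share called higher over all genes was 15.0% after vehicle and 10.7% after hAAMs. Inpp5d, the phosphatase that Fcgr2b recruits, rose by 1.28 in vehicle-treated (FDR 0.0027) and 1.23 in hAAM-treated mice (FDR 0.0062), from 9.90 ± 1.93 CPM in control mice (SD, n = 3) to 24.0 ± 5.64 (n = 5) and 23.3 ± 6.13 (n = 4). Ptpn6, the phosphatase SHP-1, rose by 0.40 (FDR 0.011) and 0.35 (FDR 0.034). The other 2 called in hAAM-treated mice were Cbl (0.47) and Dok1 (1.05), named after their values were seen. The hAAM calls of Ptpn6 and Dok1 were lost without any 1 control liver or hAAM replicate 1 or 2 (FDR up to 0.105), that of Cbl without control replicate 3 (FDR 0.054), and the vehicle call of Dok1 without control replicate 1 (FDR 0.061). DESeq2 called 1 gene lower after vehicle and 2 after hAAMs, which were named after their values were seen. Csk, a kinase that restrains Src family kinases, was at -0.20 and -0.23 by edgeR (FDR 0.060 and 0.051) and was called in both by DESeq2 (FDR 0.022 and 0.014). Ptpn11, the phosphatase SHP-2, was at -0.12 and -0.20 by edgeR (FDR 0.226 and 0.069), and DESeq2 called it after hAAMs (FDR 0.017). Every injured liver lay below the control livers for both genes, and how many of all genes separate this way was not counted. Scaling by total counts alone turned both to values above 0. Inpp5d was called in both injured groups and the receptor Fcgr2b in neither, and the difference between these genes was not tested.

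**Figure D5:**
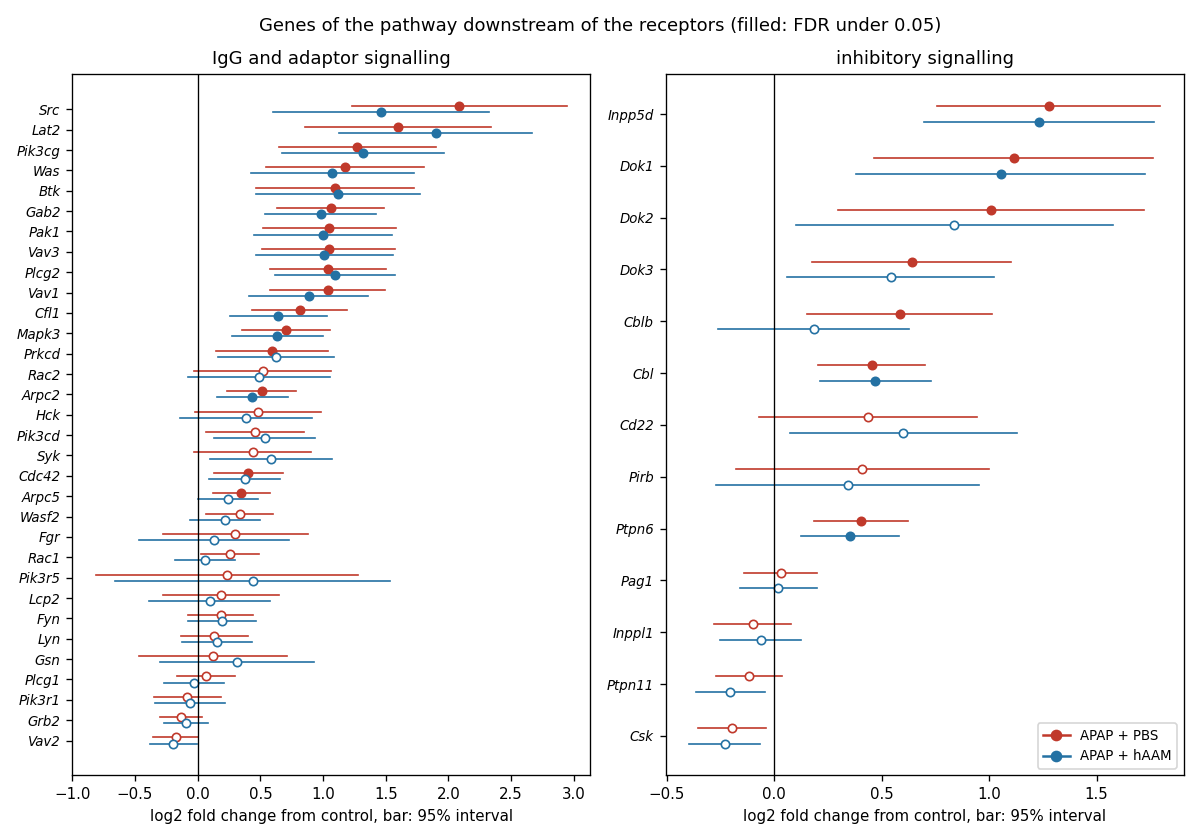
Log2 fold change from control (x axis, edgeR) of 32 signalling genes and the 13 inhibitory genes in vehicle-treated and hAAM-treated mice, with 95% intervals and filled points for an FDR under 0.05. The filled points lie to the right of 0, led in vehicle-treated mice by Src among the signalling genes and Inpp5d among the inhibitory genes.

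Other partners of the family were examined in smaller lists, beside 15.0% of all genes called higher after vehicle and 10.7% after hAAMs. Of the other receptors that use the FcR gamma chain, 3 of 8 were tested and Clec4d, a C-type lectin receptor, was higher in both groups (2.03, FDR 0.040 and 2.18, FDR 0.045), while Clec4n was not called (0.35 and 0.43). The Clec4d calls were lost in 6 and 8 of 22 alternatives, among them leaving out control replicate 2 or 3 in both groups, with FDR values up to 0.135 and 0.145. Of 6 ITAM adaptors, Tyrobp (DAP12) rose by 1.18 (FDR 0.0068) and 1.28 (FDR 0.0089), and Hcst, at 1.05 and 1.06, was not called (FDR 0.057 and 0.078). Without both near-identical livers Hcst was called in both groups (FDR 0.024 and 0.042), and after vehicle also by DESeq2 (FDR 0.046) and without vehicle replicate 2 or 3. Among 8 tested Fc receptors of other families, Fcamr, a receptor for IgA and IgM, rose by 1.89 (FDR 0.0042) and 1.63 (FDR 0.015), and Fcrl1 rose by 1.17 in vehicle-treated mice (FDR 0.048) and was at 1.17 in hAAM-treated mice (FDR 0.069). The vehicle call of Fcrl1 was lost without any 1 liver other than vehicle replicate 3, hAAM replicate 3 or hAAM replicate 4, and the hAAM value was called without both near-identical livers (FDR 0.014), without hAAM replicate 4 and by DESeq2 (FDR 0.034). The hAAM call of Fcamr was lost without control replicate 1 or 3 (highest FDR 0.061) and with the replicate block. Pigr, the transport receptor for IgA and IgM, held nearly all of the RNA of this list, and is named after its values were seen. Its mean was 1044 CPM in control, 684 after vehicle and 873 after hAAMs, and all 5 vehicle-treated livers lay below the control livers. Its log2 fold changes were -0.61 (FDR 0.074) and -0.26 (FDR 0.502), and the first was called by DESeq2 (FDR 0.046) and without both near-identical livers (FDR 0.046). Trim21, a cytosolic receptor for IgG, was also named after its values were seen. It was at -0.29 in both groups (FDR 0.091 and 0.123), with every injured liver below the control livers. Scaled by total counts alone, Trim21 was at 0.060 and 0.019. For Pigr and Trim21, the share of all genes that lie wholly below the control livers was not counted.

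Of the partners of the neonatal Fc receptor, B2m, its light chain, fell. Control livers held 896, 733 and 785 CPM, vehicle-treated livers 522, 474, 523, 473 and 378 CPM, and hAAM-treated livers 541, 510, 717 and 525 CPM, so that every injured liver lay below the control livers. The share of all genes with this separation was not counted. B2m changed by -0.76 in vehicle-treated (SE 0.14, FDR 0.0025) and -0.49 in hAAM-treated mice (FDR 0.037), and the second call was lost without both near-identical livers (FDR 0.091) and in 12 of 22 alternatives, among them leaving out any 1 control liver, hAAM replicate 1, 2 or 4 or vehicle replicate 2 or 4. Alb, the albumin gene and ligand of the receptor, was at 0.15 (FDR 0.729) and 0.20 (FDR 0.657).

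Transcripts of the ligand itself were near the floor. The IgG heavy chain genes Ighg1, Ighg2b, Ighg2c and Ighg3 together held 10 to 108 counts per liver, and Ighg2b was the one that passed the filter, at log2 fold changes of 0.33 (FDR 0.793) and 0.70 (FDR 0.600). IgG reaches the liver mainly from blood, so these counts do not measure the ligand. A further list held other opsonins and their receptors. Crp, a pentraxin that Fc gamma receptors bind, changed by -1.57 (FDR 1.67e-05) and -1.41 (FDR 8.49e-05), and Itgb2, a chain of the complement receptors, rose by 1.48 in both groups (FDR 0.0044 and 0.0083). Of the 10 genes of that list, 2 were higher and 2 lower in each group, where 15.0% of all genes were higher and 14.8% lower after vehicle and 10.7% and 9.96% after hAAMs. The others called, named after their values were seen, were Itgam (2.40 and 2.27) in both groups, C3 in vehicle-treated mice (-0.90, FDR 0.015) and Apcs in hAAM-treated mice (-1.11, FDR 0.032). C3 after hAAMs (FDR 0.055) and Apcs after vehicle (FDR 0.186) were not called by edgeR. With 1 liver left out at a time they were at -0.97 to -0.59 and -0.89 to -0.26, and DESeq2 called C3 after hAAMs. The vehicle call of C3 was lost without control replicate 2 or 3. The hAAM call of Apcs was lost without control replicate 2 or 3, without hAAM replicate 1, 2 or 4 and without both near-identical livers (FDR 0.055). The Itgam calls were lost without any 1 control liver, and after hAAMs also without hAAM replicate 1 or 2 or vehicle replicate 1 or 5.

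Of 10 markers of monocytes and recruited macrophages, 7 were higher and 0 lower in each injured group. Over all genes, 15.0% were called higher after vehicle and 10.7% after hAAMs. The 2 with the smallest p in the vehicle comparison were Cd68 at 2.21 (FDR 4.44e-05) and 2.09 (FDR 0.000127) and Chil3 at 5.67 (FDR 9.84e-05) and 5.45 (FDR 0.000223). The summed level of the 10 markers was 147 to 167 CPM in control livers, 255 to 658 in vehicle-treated livers and 253 to 658 in hAAM-treated livers. Vehicle replicate 3 (255 CPM) and hAAM replicate 4 (253 CPM) were lowest among the injured livers for this sum too. Csf1r, carried by resident and recruited macrophages, was at 0.35 (FDR 0.212) and 0.36 (FDR 0.251).

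Of 8 Kupffer cell markers, 1 was higher in each group, Marco, at 1.68 (FDR 0.000329) and 1.48 (FDR 0.00145), and the summed level was 209 to 292 CPM in control, 246 to 391 in vehicle-treated and 250 to 343 in hAAM-treated livers. Clec4f, a defining Kupffer cell gene, was at -0.48 (FDR 0.126) and -0.36 (FDR 0.303). Of 7 tested neutrophil markers 0 were called in either group by edgeR or DESeq2, with 1 after vehicle and 0 after hAAMs at an unadjusted p under 0.05, and S100a8 was at 0.81 (FDR 0.421) and 0.38 (FDR 0.751). The sinusoidal endothelial list had 5 of 9 higher after vehicle and 3 of 9 after hAAMs, among them Oit3 (0.42, FDR 0.0079 and 0.36, FDR 0.028) and Lyve1 (1.29, FDR 0.0087 and 1.15, FDR 0.024), with the hAAM calls lost without control replicate 1 or 3 or hAAM replicate 2 and that of Oit3 also without hAAM replicate 1, while Stab2 was at 0.23 (FDR 0.178) and 0.10 (FDR 0.616). DESeq2 called 5 of the 9 higher and 1 lower in each comparison. Over all genes tested, edgeR called 15.0% higher and 14.8% lower after vehicle, and 10.7% higher and 9.96% lower after hAAMs. The summed level of the list was 464 to 496 CPM in control, 537 to 677 after vehicle and 499.6 to 673 after hAAMs, so that each injured liver lay above the control livers. The hepatocyte list, which holds the defining genes of the tissue, had 1 of 7 lower in vehicle-treated mice, Hnf4a (-0.38, FDR 0.028, a call lost without any 1 control liver, without vehicle replicate 1, 4 or 5, with the replicate block and with scaling by library size alone) and 2 by DESeq2, and in hAAM-treated mice 0 by edgeR, 1 at an unadjusted p under 0.05 and 1 by DESeq2. In the B and plasma cell and T and NK cell lists 0 of 5 and 0 of 6 tested genes were called by edgeR or DESeq2 in either group, and 1 T and NK cell gene had an unadjusted p under 0.05 in vehicle-treated mice. The part of these cell types in the members' values was not tested.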

How the data were processed

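Livers of 3 control, 5 vehicle-treated and 4 hAAM-treated mice were analysed, grouped by the sample labels. The authors made the raw counts per Ensembl gene, deposited without normalization, by trimming and aligning paired-end reads and counting them with summarizeOverlaps. The submitters' processing notes name MultiQC 1.25, cutadapt 4.6, STAR 2.7.1a, DESeq2 1.38.3 and GRCm38, and the counting mode and strand setting were not given in the sources used here. The library kit keeps strand.

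Symbols, gene spans and transcripts came from GENCODE M21, which left 59 genes without a symbol. In R 4.3.3, edgeR 4.0.16 filtered genes by group (filterByExpr), scaled with TMM and fitted 1 quasi-likelihood model to all 12 livers, with two-sided tests and Benjamini-Hochberg adjustment over 22581 genes (FDR 0.05). The study itself used DESeq2. The biological coefficient of variation was 0.214. Centred profiles used a prior count of 2. DESeq2 1.42.0, other scaling and filters, robust estimation, fits of 2 groups, a replicate block and leaving out livers were alternatives. The fit was also run on counts simulated with a common dispersion for all genes. That setting is simpler than these livers, and no result here rests on it.

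The members and gene lists were chosen with earlier results of these data known. The rule for naming genes took the members, of each list the 2 with the smallest p in the vehicle comparison, a fixed set (Syk, Inpp5d, Tyrobp, B2m, Alb, Csf1r, Clec4f, Stab2, S100a8 and the IgG heavy chains), and the 3 nearest profiles of each member. The text departs from this rule, since for some lists the genes with the smallest p are not named. Further genes were named after their values were seen. The list of signalling genes was shortened by 1 gene that is not reported here, after its values were seen.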

Additional observations from a re-analysis of the deposited data

Results flagged for a closer look

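Of 44 groups of 4 or 5 livers examined for members, ratios and named genes, 6 held a liver far from the others, and chance gives about 1 in 20. Fcgr2b was at 43.5 CPM in vehicle replicate 3, below the other vehicle-treated livers, and that liver is one of the near-identical pair. The count ratio of Fcgr4 to Fcgr2b was 0.115 in vehicle replicate 4, above the other vehicle-treated livers. Vehicle replicate 5 held 38 counts of Ighg2b and 41 of Ighg3, above its group, and hAAM replicate 3 held 21 counts of Ighg2c, all low counts. B2m was at 717 CPM in hAAM replicate 3, above the other hAAM-treated livers. Vehicle replicate 5 also held 3697 counts of Ighm and 1800 of Igkc, named after their values were seen. The summed level of the immunoglobulin genes other than IgG heavy chains was 86.8 CPM in that liver, 4.23 to 5.28 CPM in the other vehicle-treated livers, 7.78 to 10.8 CPM in control livers and 5.50 to 11.7 CPM in hAAM-treated livers.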

How the results depend on the processing

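DESeq2, RLE factors, no filter, at least 10 counts in every liver, robust estimation and fits of 2 groups left the direction and the call of all 18 member values as they were. Scaling by library size alone, which moved the median of all genes, gave 5 and 4 members called after vehicle and after hAAMs, while all genes called rose from 6719 to 9747 and from 4666 to 7340 (38.2% and 29.0% of genes called higher). Fcgr3 reached 1.02 and 1.01, Fcgr4 0.81 in hAAM-treated and Fcgr2b 0.53 in vehicle-treated mice, and Fcgrt turned to 0.038. Between the treatments Fcgr3 turned to -0.0027. Without both near-identical livers 4 members were called in each group, with Fcgr3 at 0.80 and 0.85 and Fcgr4 at 0.62 in hAAM-treated mice, and with DESeq2, added after the data were seen, 4 in each, at 0.79, 0.84 and 0.61. Between the treatments Fcgr1 then turned to 0.030 with edgeR and 0.038 with DESeq2, while all genes called rose from 1 to 88 with DESeq2 and stayed at 0 with edgeR.

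Deviations from the group mean correlated at r over 0.1 in 3 of 10 same-numbered pairs (r from -0.458 to 0.385). Livers with different numbers reached 0.431 (hAAM replicate 1 and vehicle replicate 4) and 0.502 (the near-identical pair). The numbers were therefore not taken as pairs. With a replicate block 1 member, Fcer1g, was still called in each group. The calls of Fcgr1 (1.31 and 1.20) and of Fcgr4 in vehicle-treated mice (0.63) were lost, and between the treatments Fcer1g turned to -0.015 and Fcgrt to 0.016. The block lowered the count of genes called from 6719 to 4253 and from 4666 to 2959. Among other named genes it ended the vehicle calls of Dok1, Clec4d, Fcrl1, Itgam, C3, Hnf4a, Xcr1 and Gp9. After hAAMs it ended those of Ptpn6, Dok1, Clec4d, Fcamr, B2m, Itgam and Apcs.

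Leaving out 1 liver at a time gave 1 to 4 members called in vehicle-treated and 0 to 4 in hAAM-treated mice. The vehicle values ranged from 1.11 to 1.44 for Fcgr1, 0.47 to 0.79 for Fcgr3, 0.48 to 0.70 for Fcgr4, 0.12 to 0.24 for Fcgr2b, 0.93 to 1.15 for Fcer1g and -0.47 to -0.16 for Fcgrt. The hAAM values ranged from 1.04 to 1.48 for Fcgr1, 0.61 to 0.85 for Fcgr3, 0.42 to 0.62 for Fcgr4, -0.076 to 0.13 for Fcgr2b, 0.95 to 1.30 for Fcer1g and -0.47 to -0.17 for Fcgrt. Between the treatments they ranged from -0.27 to 0.18 for Fcgr1, -0.095 to 0.23 for Fcgr3, -0.21 to 0.027 for Fcgr4, -0.26 to -0.059 for Fcgr2b, -0.10 to 0.25 for Fcer1g and -0.084 to 0.056 for Fcgrt, with 0 members called.

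The alternatives were run for 39 of the other named genes. Of these 39, 25 were called after vehicle and 21 after hAAMs, and 17 and 9 of them were called under every alternative run. Gab2, Inpp5d, Tyrobp, Crp, Itgb2, Cd68, Chil3, Marco and Itgax were so in both. Many of the 39 were named for a small p in the vehicle comparison or after their values were seen. These counts therefore follow partly from how the genes were picked. Over all 22581 genes, 6719 were called after vehicle and 4666 after hAAMs. Scaled by library size alone, Hnf4a turned to 0.0025 and Pigr to 0.014 after hAAMs, and Trim21 (0.060 and 0.019), Csk (0.15 and 0.069) and Ptpn11 (0.23 and 0.10) turned in both groups, while with the replicate block Ighg2b turned to -0.48 after vehicle. Without 1 liver at a time, uncalled values crossed 0 for Alb (-0.065 to 0.29 after vehicle and -0.0039 to 0.35 after hAAMs), Ighg2b (-0.67 to 0.72 after vehicle) and S100a8 (-0.054 to 1.35 after hAAMs). The causes of these changes were not tested.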

Other observations

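Of the marker lists not described above, the dendritic cell list held 1 higher and 1 lower gene of 6 in vehicle-treated mice. Over all genes, 15.0% were called higher and 14.8% lower in that comparison. Itgax, an integrin also carried by macrophages, rose by a log2 fold change of 1.71 (FDR 0.0023, edgeR) and by 1.93 in hAAM-treated mice (FDR 0.0027). Xcr1, a chemokine receptor of cross-presenting dendritic cells, fell by 1.20 in vehicle-treated mice (FDR 0.026) and was at -0.97 in hAAM-treated mice (FDR 0.091), and the first call was lost without any 1 control liver or vehicle replicate 4. Human platelets carry an Fc gamma receptor that mouse platelets lack, and of 4 tested platelet genes Pf4, a chemokine of platelet granules, rose by 3.11 (FDR 0.0053) and 2.73 (FDR 0.015). Gp9, part of the receptor for von Willebrand factor, rose by 2.48 in vehicle-treated mice (FDR 0.030) and was at 1.69 in hAAM-treated mice (FDR 0.172). The vehicle call of Gp9 and the hAAM call of Pf4 were lost without control replicate 2 or 3. Of 5 mast cell markers 1 was tested, Kit, and it was not called.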
